A study of Mus musculus with 48 samples.

Results

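A set of 39 genes of the Fanconi anaemia and homologous recombination repair pathways were followed at the level of RNA and of ribosome occupancy in mouse liver. The 39 genes were listed by gene symbol as members of these pathways, with earlier results of the data known, out of 20622 genes with RNA values, 16269 of which also had a transcript on which ribosome-protected fragments (RPFs) were counted, and all 39 were found. They comprised a core group of 9 genes, the Fanconi core complex and the ubiquitin-conjugating enzyme Ube2t (Fanca, Fancb, Fancc, Fance, Fancf, Fancg, Fancl, Fancm and Ube2t). Further members were the 2 ID2 genes (Fancd2 and Fanci), 5 genes of the BRCA1 and BRCA2 complexes (Brca1, Bard1, Brca2, Palb2 and Brip1), 5 paralogs of recombination (Rad51b, Rad51c, Rad51d, Xrcc2 and Xrcc3), 3 strand exchange partners (Rad51ap1, Rad54l and Rad54b), 5 genes of break sensing and resection (Mre11a, Rad50, Nbn, Rbbp8 and Exo1), 3 of junction processing (Blm, Rmi1 and Slx4), Polq, and 6 checkpoint kinases and partners (Atm, Atr, Chek1, Chek2, Topbp1 and Clspn).

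The study compared livers of male mice, aged 2 to 4 months, of 4 genotypes: wild type (WT), Ctnnb1ex3/+ (B), R26-LSL-MYC (M) and Ctnnb1ex3/+; R26-LSL-MYC (BM). Every mouse, WT included, had received AAV8.TBG.Cre, a virus that drives Cre from the hepatocyte promoter TBG, so that in B, M and BM hepatocytes carried a stabilised β-catenin allele, a switched-on MYC transgene, or both, and the promoter was chosen to leave other liver cells untouched. Livers were taken 4 or 10 days after the virus from 3 mice per genotype and day, and each of the 24 mice gave 1 RPF library and 1 library of cytoplasmic RNA. The 3 mutant genotypes of a day were set against the same 3 WT mice, so their comparisons share controls and are not independent. The comparisons asked what each allele, and both together, did to these genes at each day.

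As background, a DNA interstrand crosslink stops a replication fork. The core complex then attaches ubiquitin to FANCD2 and FANCI, the crosslink is cut out, and the break left behind is repaired by homologous recombination, in which resected DNA copies the lost sequence from the sister chromatid. ATR and CHK1 slow the cell cycle meanwhile, and ATM is activated by DNA breaks. Much of this machinery is made in S phase, and hepatocytes of the resting adult liver rarely divide.

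RPF totals ranged from 9742197 to 14380713 counts and RNA totals from 3254141 to 6540116, and levels are given as CPM on library totals scaled by edgeR's TMM factors, which set the bulk of genes equal between libraries. The factors for RPFs were 0.836 to 0.854 in WT and 1.11 or more in BM at day 4, and with plain totals the median log2 RPF change of all genes in BM at day 4 would be 0.42 in place of -0.0007, so changes here are relative to the bulk of genes. RPFs were counted on 1 transcript per gene and RNA was summed over the isoforms of the gene. Translation efficiency (TE) is the RPF level over the RNA level. A change was called when the adjusted p of edgeR's quasi-likelihood F test (Benjamini-Hochberg over all genes tested) was under 0.1. The summed RPF CPM of 8 hepatocyte markers was 106240 to 120953 in WT and 47314 to 56390 in BM at day 4, and all 8 were detected in every group. In bulk tissue, fewer cells of a type and less RNA per cell cannot be told apart.

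At day 4 the repair genes rose in BM, and in a smaller number in M. In BM, 35 of the 39 rose in RPFs against WT and none fell, where 26.2% of the 11375 genes tested rose. The median log2 RPF change of the 39 was 1.68, against -0.0007 for all genes tested. In RNA, 28 of the 37 tested rose (21.3% of all genes), with a median log2 change of 1.15. Of the 39 members, 19 did not reach the minimum of the filter on low RPF counts in all 3 WT mice and passed it only through the BM mice (Fanca, Ube2t, Fancd2, Fanci, Bard1, Brca2, Palb2, Rad51b, Rad51c, Xrcc2, Xrcc3, Rad51ap1, Rad54l, Rad54b, Exo1, Slx4, Polq, Chek1 and Clspn), and 16 of the 35 tested in M passed only through the M mice. In RNA this held for 16 of the 37 tested in BM and 10 of the 31 in M. Whether such a member was tested depended on its level in the mutant mice. These counts and medians therefore describe the members and are not support for a direction. Fancd2, Fanci, Rad51b, Rad54l, Rad54b, Exo1 and Polq had at most 3 RPF counts in each WT mouse of day 4 and are given as ratios or bounds against WT. Whichever mouse was left out, 31 of the 35 RPF calls in BM (all but Fancf, Fancg, Rmi1 and Xrcc3) and 22 of the 24 in M (all but Fancg and Rad51d) were kept. In RNA all 28 calls in BM were kept, and 8 of the 13 in M (all but Brip1, Chek1, Mre11a, Rad50 and Xrcc2).

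In M at day 4, 24 of the 35 members tested rose in RPFs (18.5% of all genes) and 13 of 31 rose in RNA (13.5%), with median log2 changes of 0.89 and 0.54. In B at day 4, 1 of 23 rose in RPFs (Fancl, log2 change 0.53, adjusted p = 0.060 by edgeR, 6.21% of all genes) and 1 of 28 in RNA (Atm, log2 change 0.41, adjusted p = 0.037, 4.41% of all genes). No member fell in RPFs or RNA in any genotype at day 4.

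Summed over the 39 genes, the RPF level at day 4 was 178 ± 6.55 CPM in WT (SD, n = 3 mice in each group), and it was higher in B (212 ± 15.1), M (319 ± 28.5) and BM (501 ± 85.4). Atm, Atr, Nbn and Rad50 made up a large part of it, and without these 4 the BM mice still had the highest sum, at 278 CPM, against 72.5 CPM in WT, with M at 151 and B at 90.4. Markers of S phase and mitosis moved with these sums. All 15 of these markers rose in RPFs in M and in BM, 13 of 15 in B, and their summed RPF level was 157 to 167 CPM in WT, against 212 to 252 (B), 499 to 592 (M) and a range of 1017 to 1748 in the BM mice. Their part in the levels of the repair genes was not tested. The summed RPF level of 6 Kupffer cell markers was 534 to 621 CPM in WT, 338 to 1001 in M and 314 to 331 in BM, and other markers were lower in M and in BM than in WT. The 8 hepatocyte markers were at 67416 to 84687 CPM in M, and the 4 erythroid markers summed to 538 to 590.0 CPM in WT, 267 to 355 in M and 207 to 290 in BM. The 6 cholangiocyte markers summed to 85.7 to 134, 43.9 to 63.0 and 36.1 to 53.9, the 6 stellate cell markers to 728 to 804, 573 to 699 and 475 to 599, and the 6 endothelial cell markers to 698 to 780.4, 535 to 654 and 551 to 616. The 8 lymphocyte and neutrophil markers were at 37.5 to 52.6 CPM in WT, 20.3 to 65.8 in M, which overlapped, and 20.6 to 25.3 in BM. In B, hepatocyte markers (83104 to 101573), Kupffer cell markers (413 to 497), cholangiocyte markers (59.8 to 63.9) and lymphocyte and neutrophil markers (27.7 to 32.5) lay below WT. The stellate cell, endothelial cell and erythroid markers of B overlapped with WT. Their part was not tested. BM mouse 1, which had the 1748 CPM, was also the highest of the 3 BM mice for 35 of the 39 repair genes.

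**Figure D1:**
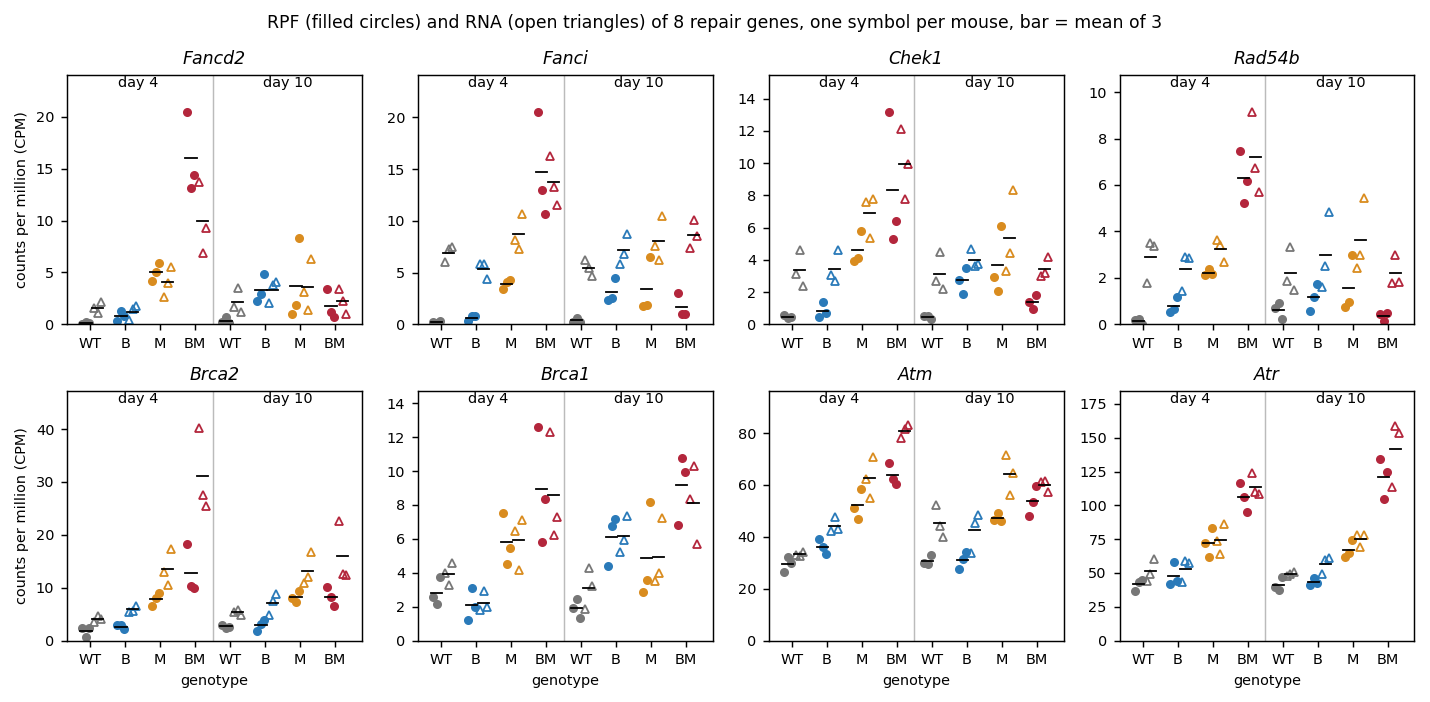
RPF (filled circles) and RNA (open triangles) levels in CPM of 8 repair genes, 1 symbol per mouse and a bar at the mean of 3 mice, with the genotypes on the horizontal axis and day 4 to the left of the line in each panel. Fancd2, Fanci, Chek1 and Rad54b peaked in BM at day 4 and stood at or below 3.37 RPF CPM in every BM mouse at day 10, while Atr and Brca1 stayed above WT in BM at both days.

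The start codons of the members on which the TE results turn are shown first, as the place where their translation starts. RPFs at the start itself were not part of the counts, which left out the codons at both ends of the coding sequence. Each line gives 9 bases before the start codon, the start codon in capitals and 1 base after it, 5′ to 3′ on the strand of the gene, read from GRCm39 with GENCODE vM39.
Fancd2 (chr6:113510760-113510772, plus strand): ttagtcaaaATGa
Fanci (chr7:79045651-79045663, plus strand): tgagcaaccATGg
Brip1 (chr11:86089787-86089799, minus strand): gaaggcagaATGt
Rad51b (chr12:79347329-79347341, plus strand): cctggaaacATGa
Rad54l (chr4:115980179-115980270, minus strand, across an intron): ggggccaggATGa
Rad54b (chr4:11563334-11563346, plus strand): ttgctgaggATGa
Polq (chr16:36832253-36832265, plus strand): ttgtttgcaATGa
Chek1 (chr9:36637154-36637166, minus strand): cttggagtcATGg
Blm (chr7:80164431-80184795, minus strand, across an intron): gtgaggatcATGg
Rad51c (chr11:87295589-87295601, minus strand): tgaggaaatATGc
Brca2 (chr5:150446669-150446681, plus strand): gtagagaaaATGc
Atm (chr9:53445233-53445245, minus strand): tcttaaaccATGa
Atr (chr9:95739769-95739781, plus strand): ggtgtcaccATGg
A purine 3 bases before the start codon and a G right after it are the main features of a strong vertebrate start context. The purine was present in 36 of the 38 members read (94.7%, against 85.5% of 16145 genes), the G in 15 (39.5%, against 51.3%) and both in 14 (36.8%, against 43.5%). Of the 9 members called up in TE in M or BM at day 4, Fanci, Chek1 and Blm had both, as did Atr, which was not called. Fancd2, Brip1, Rad51b, Rad54l, Rad54b and Polq had the purine and no G, as did Atm and Brca2, which were not called.

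The core complex, which assembles on a stalled fork and carries the ubiquitin ligase FANCL, was grouped with Ube2t. In BM at day 4, 8 of these 9 genes rose, with a median log2 RPF change of 0.77. The group fell into a part with large changes and a part with small ones. Fanca, a scaffold subunit, gave 1.10, 0.607 and 0.791 RPF CPM in WT and 18.1, 11.5 and 12.4 in BM. It was the highest of the group, with a log2 RPF change of 4.04 ± 0.28 (SE, 16.5-fold, adjusted p = 1.2e-06, edgeR) and a log2 RNA change of 4.02 ± 0.49. The transcript used for RPFs had 1, 0 and 2 RNA counts in the WT mice, 75% of the counts of the gene there. The size of the RNA change of Fanca is therefore uncertain. Fancb, another subunit of the ligase module, gave 1.20, 1.58 and 1.02 RPF CPM in WT against 11.6, 7.34 and 7.21 in BM, and Ube2t, the ubiquitin-conjugating enzyme, 0.460, 0.486 and 0.904 against 7.46, 4.52 and 4.04. All BM mice lay above all WT mice for these 3 genes.

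Changes of the other core genes were smaller. Fancl gave 9.10, 10.6 and 8.36 RPF CPM in WT and 17.5, 15.3 and 13.8 in BM (log2 change 0.76 ± 0.14, adjusted p = 0.0011, edgeR). Fancm, the translocase that binds the fork, gave 2.94, 3.40 and 4.30 against 7.33, 4.98 and 5.76, and Fancc 3.49, 2.91 and 3.05 against 5.44, 4.72 and 4.43. Fancf and Fancg had log2 RPF changes of 0.59 and 0.77, with BM and WT mice of Fancg overlapping. Fance was the lowest of the group, with a log2 RPF change of -0.03 ± 0.24 (adjusted p = 0.94) and 2.02, 1.70 and 2.37 RPF CPM in WT against 2.08, 2.03 and 1.79 in BM.

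The ID2 complex, the protein pair that the core complex ubiquitinates, was close to undetected on ribosomes in WT. Fancd2 had 0, 2 and 1 RPF counts in the 3 WT mice of day 4, which is 0, 0.243 and 0.113 CPM. It had 0.368, 1.31 and 0.766 RPF CPM in B, 4.21, 5.06 and 5.90 in M and 20.5, 13.2 and 14.4 in BM, so that every mouse of each mutant genotype lay above every WT mouse and the BM mice above all M mice. The observed ratio of BM to WT was 150 (95% exact counting interval 51.2 to 730, which covers counting error only) and that of M to WT 47.1 (15.8 to 230). The RNA of Fancd2 was 1.56, 1.10 and 2.16 CPM in WT, 2.66, 4.02 and 5.55 in M and 13.7, 6.92 and 9.26 in BM, a log2 change of 2.64 ± 0.35 in BM (adjusted p = 5.0e-05, edgeR).

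Fanci RPFs were 0.184, 0.121 and 0.339 CPM in WT, from 2, 1 and 3 counts, then 0.276, 0.839 and 0.766 in B, 3.42, 4.06 and 4.27 in M and 20.5, 13.0 and 10.7 in BM. The B mice overlapped with WT, and the M and BM mice did not. The observed ratio was 69.3 in BM (31.7 to 189) and 18.3 in M (8.18 to 50.6). Fanci RNA, in contrast to its RPFs, was well detected in WT at 6.01, 7.24 and 7.44 CPM, and was 8.17, 7.30 and 10.7 in M and 16.2, 13.3 and 11.6 in BM. The log2 RNA change was 1.00 ± 0.20 in BM (1.99-fold, adjusted p = 0.0013, edgeR) and 0.32 ± 0.22 in M (adjusted p = 0.35, and 0.024 with plain library totals).

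TE of both ID2 genes was called up in M and in BM at day 4. With the RPF count of every WT mouse raised to 3, the ratio of TE to WT was still 22.7 for Fanci and 7.90 for Fancd2 in BM, and 9.51 and 6.10 in M. With WT at 5 counts the BM ratios were 13.6 and 4.74. Adjusted p-values of edgeR were 0.00011 for Fanci and 0.011 for Fancd2 in BM, and 0.00023 and 0.014 in M. Fitted fold changes against WT are not given for these genes, since they depend on the prior count.

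All 5 genes of the BRCA1 and BRCA2 complexes rose in BM at day 4, with a median log2 RPF change of 2.79. Bard1, the partner that forms a ubiquitin ligase with BRCA1, was the highest, at 4.01 ± 0.43 (adjusted p = 2.9e-05, edgeR), from 0.644, 0.243 and 0.226 RPF CPM in WT to 9.11, 5.11 and 4.76 in BM. Brca1 itself was the lowest, with 2.57, 2.19 and 3.73 RPF CPM in WT, 1.20, 3.08 and 1.96 in B, 7.55, 4.52 and 5.45 in M and 12.6, 5.83 and 8.34 in BM. M and BM mice lay above WT and overlapped with each other. The log2 RPF change of Brca1 was 1.68 ± 0.30 in BM (adjusted p = 0.0010) and 1.07 ± 0.26 in M (adjusted p = 0.014), with RNA changes of 1.13 and 0.56, the latter not called (adjusted p = 0.21, and 0.019 with plain library totals).

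Brca2, a mediator of recombination, changed by similar amounts in RPFs and RNA. Its RPF level was 2.39, 0.728 and 2.37 CPM in WT, 2.94, 2.89 and 2.13 in B, 6.58, 8.12 and 8.9 in M and 18.3, 10.4 and 9.86 in BM, and its RNA level 3.56, 4.61 and 4.08 CPM in WT, 12.9, 10.6 and 17.3 in M and 40.2, 27.5 and 25.5 in BM. All BM mice lay above all M mice, and all M mice above all WT mice, on both measures. The log2 changes in BM were 2.79 ± 0.35 for RPFs (6.90-fold, adjusted p = 7.9e-05, edgeR) and 2.92 ± 0.23 for RNA (7.59-fold, adjusted p = 3.5e-07), and that of TE was -0.15 ± 0.53 (adjusted p = 0.99). Palb2, which bridges BRCA1 and BRCA2, gave 0.368, 0.364 and 0.226 RPF CPM in WT and 2.14, 1.70 and 1.26 in BM (log2 change 2.39 ± 0.40).

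Brip1, a helicase that binds BRCA1, was the member of this group called in TE. Its RPFs were 2.3, 2.31 and 1.81 CPM in WT, 3.49, 2.70 and 3.06 in B, 7.28, 7.28 and 10.4 in M and 19.9, 13.3 and 14.1 in BM. Every group lay apart from the next in that order. Its RNA was 8.91, 16.5 and 14.2 CPM in WT and 31.2, 20.1 and 27.6 in BM, a log2 change of 1.00 ± 0.21, against 2.90 ± 0.21 for RPFs. The log2 TE change was 1.89 ± 0.35 in BM (3.70-fold, adjusted p = 0.0088, edgeR) and 1.38 ± 0.33 in M (2.60-fold, adjusted p = 0.072, and 0.11 with plain library totals).

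Among the paralogs, which act in recombination downstream of resection, 3 of 5 rose in BM at day 4, with a median log2 RPF change of 0.88. Rad51b had 1 RPF count in the 3 WT mice together (0.0919, 0 and 0 CPM), and gave 0.368, 0.373 and 0.681 CPM in B, 0.614, 1.23 and 1.54 in M and 4.52, 5.5 and 4.37 in BM. The ratio of BM to WT was 134, with a counting interval of 23.8 to 5316. Its RNA was low as well, at 0.445, 0.659 and 0.240 CPM in WT and 3.0, 3.46 and 4.27 in BM. TE of Rad51b was called up in BM (adjusted p = 0.087, edgeR), a call lost with DESeq2, without the count filter and whichever of the 6 mice was left out, and the ratio of TE with WT at 3 counts was 1.84, and 1.10 at 5 counts.

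Xrcc2 rose with its RNA, from 0.736, 0.728 and 1.02 RPF CPM in WT to 3.18, 2.03 and 2.32 in BM (log2 change 1.62 ± 0.31, and 1.91 ± 0.39 for RNA), and Xrcc3 had a log2 RPF change of 0.88 ± 0.34 (adjusted p = 0.059, edgeR). Rad51d was the lowest paralog at 0.31 ± 0.17 (adjusted p = 0.16). Rad51c was not called either, with 1.20, 0.486 and 1.81 RPF CPM in WT and 2.20, 1.11 and 1.26 in BM, which overlapped.

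The 3 strand exchange partners all rose in BM at day 4. Rad51ap1, which stimulates strand invasion, gave 0.368, 0.243 and 0 RPF CPM in WT and 7.21, 4.32 and 4.56 in BM, and its RNA, 0.223, 0.220 and 0.240 CPM in WT, was 5.05, 2.42 and 3.03 in BM. With 1 RNA count in each WT mouse the size of its RNA change is uncertain, and its TE was not called (adjusted p = 0.96, edgeR).

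The RAD54 translocases move along DNA during recombination. Rad54b RPFs were 0.184, 0.243 and 0 CPM in WT (2, 2 and 0 counts), 0.552, 0.653 and 1.19 in B, 2.11, 2.38 and 2.18 in M and 7.46, 5.24 and 6.15 in BM. Its RNA was 1.78, 3.51 and 3.36 CPM in WT, 3.61, 3.42 and 2.67 in M and 9.15, 6.74 and 5.70 in BM. In M, RPFs lay apart from WT and RNA overlapped with it. The RPF ratio was 44.1 in BM (17.0 to 163) and 15.6 in M (5.85 to 58.6), and TE was called up in both (adjusted p = 0.0024 and 0.0073, edgeR), with ratios of 7.72 and 6.07 when WT was set to 3 counts.

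Rad54l gave 0.276, 0 and 0 RPF CPM in WT (3 counts in all), 0.527, 0.919 and 0.545 in M and 5.19, 2.75 and 2.91 in BM, a ratio of 34.1 in BM (11.5 to 167). Its RNA, 2.23, 4.39 and 3.36 CPM in WT and 8.04, 3.29 and 5.52 in BM, overlapped between the groups. TE of Rad54l was called up in BM (adjusted p = 0.021, edgeR), with a ratio of 6.57 when WT was set to 3 counts and 3.94 at 5 counts.

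All 5 genes of break sensing and resection rose in BM at day 4, with a median log2 RPF change of 1.08. MRE11, RAD50 and NBN form the complex that holds the ends of a break. Mre11a rose by 1.42 ± 0.16 on the log2 scale (2.68-fold, adjusted p = 4.4e-05, edgeR). Rad50 gave 9.93, 9.83 and 9.38 RPF CPM in WT and 23.7, 18.7 and 18.1 in BM (log2 change 1.08 ± 0.13). Nbn, the lowest of the group, gave 24, 28.8 and 21.7 in WT and 33.2, 33.7 and 31.2 in BM (0.42 ± 0.11, adjusted p = 0.0096). RNA of these 3 genes changed by 1.04, 0.55 and 0.47, all called.

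Exo1, a nuclease of long-range resection, was the highest of the group. It gave 0.0919, 0.243 and 0.226 RPF CPM in WT (5 counts in all), 1.23, 1.07 and 1.27 in M and 5.81, 2.88 and 2.38 in BM, a ratio of 20.9 in BM (8.80 to 65.3). Its RNA rose by 2.75 ± 0.36 on the log2 scale (adjusted p = 4.1e-05, edgeR), and its TE was not called (adjusted p = 0.65). Rbbp8, which starts resection, rose by 0.87 ± 0.29 in RPFs and by 0.75 ± 0.19 in RNA.

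In junction processing, Blm, the helicase that dissolves crossed strands, was the member that changed most. Its RPFs were 1.38, 1.70 and 2.03 CPM in WT, 2.57, 2.98 and 1.45 in B, 4.74, 5.29 and 5.45 in M and 12.5, 8.78 and 7.21 in BM, with M apart from WT and BM apart from M. Its RNA was 6.46, 5.93 and 6.24 CPM in WT, 7.03, 5.06 and 7.55 in M and 17.2, 10.0 and 13.9 in BM. In M, therefore, RPFs rose (log2 change 1.64 ± 0.22, adjusted p = 0.00061, edgeR) over an RNA level that overlapped with WT (0.06 ± 0.23, adjusted p = 0.90), and TE was called up by 1.58 ± 0.31 (adjusted p = 0.022).

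In BM both measures of Blm rose, by 2.51 ± 0.26 and 1.15 ± 0.22, and TE, at 1.35 ± 0.38, was not called (adjusted p = 0.11), though it was with the mouse as a block (1.36, adjusted p = 0.0083). Rmi1, which binds BLM, gave 5.79, 5.95 and 6.22 RPF CPM in WT and 8.49, 7.08 and 7.21 in BM, the lowest change of the group (0.37 ± 0.15, adjusted p = 0.066). Slx4, a scaffold for nucleases, was not called (0.40 ± 0.32, adjusted p = 0.33).

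Polq, the polymerase of an alternative end joining route, had no RPF count in any WT or B mouse of day 4. It gave 0.439, 0.766 and 0.545 RPF CPM in M and 4.52, 1.57 and 2.84 in BM, at least 9.13-fold higher in BM than WT set to 3 counts in each mouse. Its RNA was nonetheless measurable in WT, at 3.12, 4.83 and 3.84 CPM, and was 19.2, 11.1 and 11.8 CPM in BM (log2 change 1.84 ± 0.27). TE was called up in BM (adjusted p = 0.063, edgeR), and its ratio was at least 2.56 with WT at 3 counts and at least 1.53 at 5 counts.

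All 6 checkpoint genes rose in RPFs in M and in BM at day 4. In BM they ranged from a log2 change of 1.14 ± 0.10 for Atm to 4.49 ± 0.50 for Clspn. Atm gave 26.3, 32.3 and 29.7 RPF CPM in WT, 39, 36.1 and 33.3 in B, 51.3, 47.0 and 58.4 in M and 68.4, 62.3 and 60.5 in BM. Its RNA was 33.2, 32.7 and 34.1 CPM in WT, 42.4, 47.6 and 43.0 in B and 78.1, 81.6 and 83.2 in BM. The order WT, B, M, BM held without overlap between neighbours in RPFs, and the changes in BM were 2.21-fold in RPFs and 2.43-fold in RNA (adjusted p = 5.6e-06 and 3.2e-07, edgeR).

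Atr, the kinase that answers stalled forks, gave 36.9, 43.0 and 44.6 RPF CPM in WT, 41.6, 58.2 and 44.0 in B, 72.0, 61.5 and 83.1 in M and 117, 107 and 94.9 in BM. M and BM lay above WT, and B overlapped with it. RNA of Atr was 44.3, 49.4 and 60.0 CPM in WT and 124, 110 and 108 in BM. The changes in BM were 2.60-fold in RPFs and 2.23-fold in RNA, and TE changed by 0.22 ± 0.16 on the log2 scale (adjusted p = 0.77). Topbp1, the activator of ATR, gave 8.37, 7.77 and 8.25 RPF CPM in WT and 29.6, 19.8 and 24.9 in BM, a log2 change of 1.63 in RPFs and 1.57 in RNA.

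Per length of transcript, the order of the members in RNA was as follows. In WT at day 4, mean summed TPM was highest for Nbn at 7.44, followed by Atr at 7.0, Rad50 at 5.28, Topbp1 at 4.33 and Rmi1 at 4.27, and lowest for Fanca at 0.0833, Exo1 at 0.120 and Rad51ap1 at 0.127. In BM at day 4 it was highest for Atr at 27.3, followed by Topbp1 at 22.9, Nbn at 18.2 and Atm at 15.9, and lowest for Xrcc3 at 0.863.

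Chek1 and Clspn, the kinase downstream of ATR and its adaptor claspin, changed more in RPFs than in RNA. Chek1 gave 0.552, 0.364 and 0.452 RPF CPM in WT, 0.460, 1.40 and 0.681 in B, 3.95, 4.14 and 5.81 in M and 13.2, 5.31 and 6.42 in BM, with M and BM above WT and overlapping with each other. Its RNA was 3.12, 4.61 and 2.40 CPM in WT, 7.6, 5.36 and 7.77 in M and 12.1, 7.78 and 9.97 in BM. The log2 TE change was 2.3 ± 0.47 in M (4.93-fold, adjusted p = 0.029, edgeR) and 2.59 ± 0.67 in BM (6.0-fold, adjusted p = 0.075, and 0.11 with plain library totals).

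Clspn gave 0.736, 0 and 0.452 RPF CPM in WT, 3.77, 2.61 and 2.73 in M and 14.2, 6.81 and 7.94 in BM. Its log2 RPF change in BM was 4.49 and its RNA change 1.87 ± 0.33. The TE change of 2.60 ± 0.78 was not called (adjusted p = 0.16, edgeR), and it was called with the mouse as a block (2.58, adjusted p = 0.013). Chek2, the kinase downstream of ATM, gave 2.11, 3.28 and 2.49 RPF CPM in WT and 19.2, 10.6 and 12.0 in BM (log2 change 2.45 ± 0.27, and 1.80 ± 0.31 for RNA).

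Promoters of the 39 members were searched for words, since 28 of the 37 tested rose in RNA in BM at day 4, and are shown for 3 members that were called in RNA and hold a searched word. Each line is the 250 bases before the transcript start in GRCm39, 5′ to 3′ on the strand of the gene, with matches in capitals.
Chek1 (chr9:36637671-36637920, minus strand): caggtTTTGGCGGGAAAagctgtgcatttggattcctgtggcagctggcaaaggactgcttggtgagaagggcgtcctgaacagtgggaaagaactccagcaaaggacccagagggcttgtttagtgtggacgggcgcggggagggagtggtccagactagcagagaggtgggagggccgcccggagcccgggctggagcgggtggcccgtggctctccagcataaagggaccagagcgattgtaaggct
Clspn (chr4:126450478-126450727, plus strand): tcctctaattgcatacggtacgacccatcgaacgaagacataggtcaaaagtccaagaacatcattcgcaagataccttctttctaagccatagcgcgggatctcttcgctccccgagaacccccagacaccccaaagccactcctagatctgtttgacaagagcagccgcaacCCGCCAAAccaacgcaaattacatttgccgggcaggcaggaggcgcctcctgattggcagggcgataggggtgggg
Brca2 (chr5:150445825-150446074, plus strand): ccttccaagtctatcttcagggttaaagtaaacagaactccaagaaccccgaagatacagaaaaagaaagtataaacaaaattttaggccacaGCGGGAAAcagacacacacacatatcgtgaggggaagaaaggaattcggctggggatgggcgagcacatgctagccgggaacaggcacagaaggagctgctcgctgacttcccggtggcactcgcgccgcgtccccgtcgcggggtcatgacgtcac
The words searched on both strands were TTTGGCGC, TTTCGCGC, TTTCCCGC and TTTGGCGG, which resemble the site of E2F factors, and the E-box CACGTG. In Chek1 a TTTGGCGG and the reverse complement of TTTCCCGC overlap. The E2F-type words were in 5 of 39 member promoters (12.8%: Bard1, Brca2, Chek1, Chek2 and Clspn), against 437 of 16249 promoters of all genes (2.69%). CACGTG was in 2 members (5.13%: Rad51b and Slx4), against 1116 (6.87%). These are matches of letters and not sites shown to be bound.

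**Figure D2:**
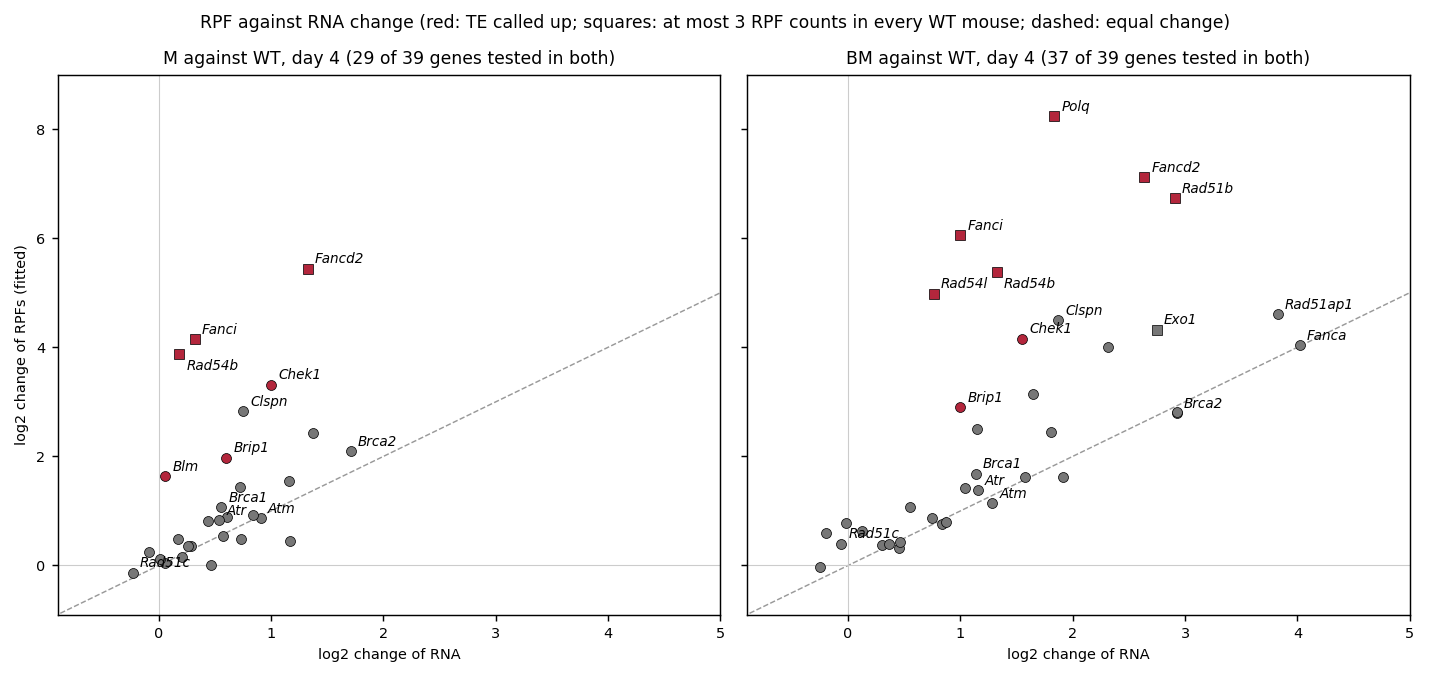
Fitted log2 change of RPFs (vertical) against that of RNA (horizontal) for the members tested in both, in M (left) and BM (right) against WT at day 4, with 1 symbol per gene and a dashed line of equal change. Red symbols are genes called up in TE, and squares are genes with at most 3 RPF counts in every WT mouse, whose vertical position depends on the prior count. Red symbols lie above the line, while Brca2, Atm, Atr and Fanca lie near it. The horizontal position of Fanca rests on few RNA counts in WT.

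Across the members, TE was called up for 6 of the 29 tested in M at day 4 (0.884% of all genes) and for 8 of 37 in BM (1.71%), and none was called down. Of these, 7 of the 8 in BM (all but Brip1) and 4 of the 6 in M (all but Brip1 and Blm) passed the filter on RPFs only through the higher group, so these counts are a description and are not support when set beside the share of all genes. The 6 in M were Fancd2, Fanci, Brip1, Rad54b, Blm and Chek1, and the 8 in BM were Fancd2, Fanci, Brip1, Rad51b, Rad54l, Rad54b, Polq and Chek1. The BM count was 4 without WT mouse 1 or without WT mouse 2 and 2 without WT mouse 3, and the M count was 3 without WT mouse 3. Fanci and Rad54b remained called in M and in BM whichever mouse was left out, and each of the other calls was lost without at least 1 mouse. When RNA was taken only from the transcript on which RPFs were counted, an alternative chosen after seeing the data, 6 of the 8 calls in BM and 4 of the 6 in M could be tested again, and 1 was lost in each (Chek1 in BM and Blm in M). TE also rose for 10 of the 15 S phase and mitosis markers in M and for 10 in BM, whose part in these results was not tested.

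In the plot of TE by mouse, Fanci and Rad54b lay lower in each WT mouse of day 4 than in any M or BM mouse of that day. The highest WT mouse was at a log2 TE of -4.26 for Fanci and -3.04 for Rad54b, and the lowest M or BM mouse at -1.32 and -0.785. Atr stayed between -0.606 and 0.240 in all 24 mice. No member was called in TE in B at day 4 (edgeR, with 1 of 21 at an unadjusted p under 0.05, and 0 by DESeq2).

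**Figure D3:**
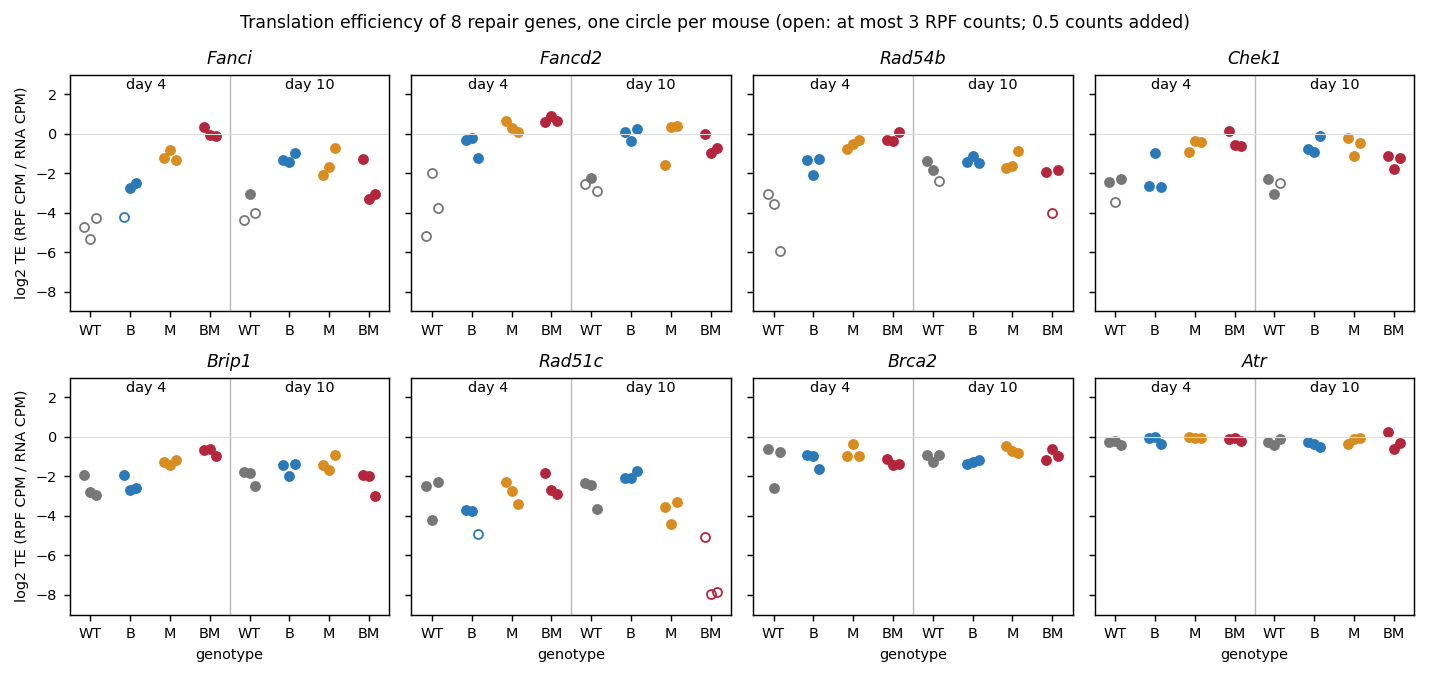
Log2 TE (RPF CPM over RNA CPM, with 0.5 counts added to each) of 8 repair genes, 1 circle per mouse, with the genotypes on the horizontal axis and day 4 to the left of the line. Open circles mark mice with at most 3 RPF counts, whose position depends on the added counts. Fanci and Rad54b lay lower in each WT mouse of day 4 than in any M or BM mouse of that day, and Rad51c was lowest in BM at day 10.

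BM was also compared directly with M at day 4, to ask what the β-catenin allele added to MYC. In RPFs 27 of 39 members were higher in BM (18.8% of all genes) and in RNA 24 of 37 (14.6%), and none was lower. Of these, 4 in RPFs (Palb2, Rad51b, Rad54l and Polq) and 5 in RNA (Fanca, Fancb, Rad51b, Rad51ap1 and Exo1) passed the filter on low counts only through the BM mice. The counts are therefore a description. The RPF calls of Atm, Brca2, Chek1, Fancm, Nbn and Palb2 were lost without at least 1 mouse. So were 9 of the 24 RNA calls (Bard1, Brip1, Chek1, Chek2, Mre11a, Rad51ap1, Rad54l, Ube2t and Xrcc2). The RPF changes were largest for Rad54l at 2.40 ± 0.36 on the log2 scale (adjusted p = 0.0012, edgeR), Polq at 2.31 ± 0.45, Rad51b at 2.06 ± 0.28 and Fanci at 1.89 ± 0.24. They were smaller for Atm at 0.27 ± 0.09 (adjusted p = 0.051) and Atr at 0.54 ± 0.12 (adjusted p = 0.0069). Brca1 was not called (0.60 ± 0.28, adjusted p = 0.13). No TE difference was called (edgeR, with 2 of 37 at an unadjusted p under 0.05, and 0 by DESeq2), and with the mouse as a block Fanci (1.20, adjusted p = 0.0012) and Rad54l (1.48, adjusted p = 0.043) were. In RPFs the S phase and mitosis markers summed to 499 to 592 CPM in M and 1017 to 1748 in BM, the highest in BM mouse 1. The hepatocyte markers were at 67416 to 84687 and 47314 to 56390, and the Kupffer cell markers at 338 to 1001 and 314 to 331. Their part was not tested.

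By day 10 fewer of the repair genes were above WT in BM. In RPFs 12 of the 27 members tested were higher than WT (24.5% of all genes), and Nbn was lower (22.3% of all genes were). In RNA 9 of 27 were higher (22.9%). Fanca, Fanci, Rad51b and Chek1 in RPFs and Brca1 in RNA passed the filter on low counts only through the BM mice, so these counts are a description. The RPF calls of Fanca, Fanci, Rad50 and Rbbp8 and the RNA calls of Atm, Fanci, Mre11a and Rbbp8 were lost without at least 1 mouse. The summed RPF level of the 39 was 194 ± 2.70 CPM in WT and 329 ± 20.3 in BM, and 81.5 and 119 CPM without Atm, Atr, Nbn and Rad50. The S phase and mitosis markers were 176 to 227 CPM in WT and 246 to 326 in BM, with 5 of 15 up. The Kupffer cell markers were 410 to 593 CPM in WT and 657 to 725 in BM, and the lymphocyte and neutrophil markers 31.0 to 52.7 and 54.5 to 57.4. In BM the stellate cell markers were lower (719 to 752 CPM, against 785 to 941 in WT), as were the hepatocyte markers (45787 to 50850, against 103000 to 129120). Their part was not tested.

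**Figure D4:**
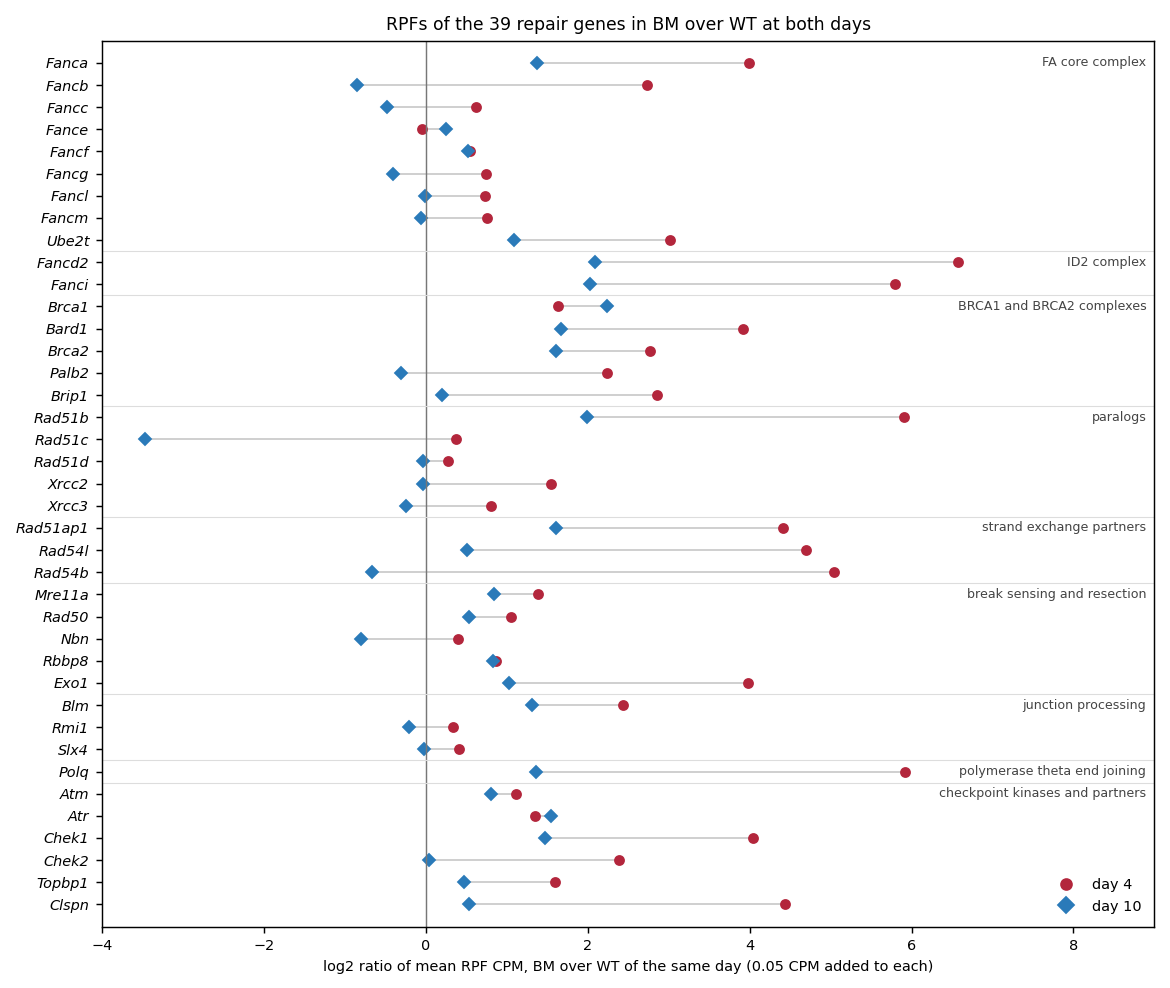
Log2 ratio of the mean RPF CPM of BM over WT of the same day (0.05 CPM added to each), with the 39 genes on the vertical axis ordered by role, circles for day 4, diamonds for day 10 and a grey line joining both. The diamonds lie left of the circles for most genes, but right of them for Brca1, Atr and Fance, and Rad51c is lowest at day 10 with a log2 ratio of -3.46.

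A direct test asked whether BM acted differently on the 2 days. The difference, day 10 minus day 4, was negative and called for 24 of 39 members in RPFs (18.6% of all genes were called lower) and for 17 of 37 in RNA (16.6%), and no member was called positive. By role, the 24 in RPFs were 6 of 9 in the core group, both ID2 genes, 2 of 5 in the BRCA complexes and 3 of 5 paralogs. They also held 2 of 3 strand exchange partners, 3 of 5 in break sensing, 2 of 3 in junction processing and 4 of 6 checkpoint genes. The comparison at each day rests on its own WT mice. Of the 39 members tested, 9 passed the filter on low RPF counts only through the BM mice of day 4, and 5 of the 24 called were among them (Fancd2, Palb2, Rad54l, Rad54b and Exo1), as were 4 of the 17 in RNA (Fanca, Fancb, Rad51b and Rad51ap1). Whether such a member was tested depended on its level in BM at day 4, so these counts are a description and are not support for a lower effect at day 10. Whichever mouse was left out, 16 of the 24 RPF calls and 7 of the 17 RNA calls were kept. By the same test all 15 S phase and mitosis markers were lower in RPFs and 12 of 15 in RNA, and 4 of 6 Kupffer cell markers were higher in both, and their part was not tested.

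Of the core genes, Fanca gave 0.612, 1.53 and 0.481 RPF CPM in WT and 3.25, 2.25 and 1.57 in BM at day 10, still above WT (log2 change 1.41 ± 0.48, adjusted p = 0.051, edgeR) but with a smaller effect than at day 4 (difference -2.61 ± 0.61, adjusted p = 0.0086). Fancb gave 1.57, 0.921 and 1.20 in WT and 0.696, 0.466 and 0.826 in BM, so that the gene that was 7.01-fold up at day 4 lay below every WT mouse at day 10, though not with plain library totals (difference -3.71 ± 0.47, adjusted p = 0.00026). Fancc likewise lay below WT, though again not with plain library totals, with 4.02, 3.48 and 3.36 against 2.32, 2.95 and 2.48, although its change of -0.51 ± 0.24 was not called (adjusted p = 0.13).

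Fancl and Fancm overlapped with WT at day 10. Fancl gave 10.1, 9.31 and 9.61 RPF CPM in WT and 7.6, 10.2 and 11.2 in BM, and Fancm 3.5, 3.89 and 3.36 against 3.31, 3.42 and 3.64. Ube2t, at 0.700, 0.818 and 0.361 in WT and 2.03, 1.32 and 0.826 in BM, was above WT in each mouse, and its effect was lower than at day 4 (difference -1.99 ± 0.66, adjusted p = 0.044, edgeR).

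Fancd2 gave 0.262, 0.716 and 0.120 RPF CPM in WT and 3.37, 1.16 and 0.661 in BM at day 10, which overlapped, and Fanci 0.262, 0.614 and 0.240 against 3.02, 1.01 and 0.991, which did not. In both genes BM mouse 1 was above the other BM mice. RNA of Fanci was 6.21, 5.48 and 4.66 CPM in WT and 7.35, 10.1 and 8.57 in BM (log2 change 0.65 ± 0.23, adjusted p = 0.052, edgeR). The lower effect at day 10 was called for both genes in RPFs (adjusted p = 0.020 and 0.018) and for Fancd2 in RNA (-2.57 ± 0.68, adjusted p = 0.015), while the RNA difference of Fanci was -0.35 ± 0.30 (adjusted p = 0.43).

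Brca1 remained up at day 10. Its RPFs were 1.92, 2.45 and 1.32 CPM in WT and 6.79, 10.8 and 9.91 in BM at day 10 (log2 change 2.24 ± 0.30, 4.71-fold, adjusted p = 0.0017, edgeR), with RNA of 1.86, 4.30 and 3.19 against 8.35, 10.3 and 5.71. The difference from day 4, 0.57 ± 0.47, was not called (adjusted p = 0.40). Brca2 stayed 3.05-fold up in RPFs, at 2.89, 2.45 and 2.64 CPM in WT and 10.0, 8.15 and 6.44 in BM. Its RNA, 5.38, 5.87 and 4.91 CPM in WT and 22.7, 12.6 and 12.5 in BM, had a lower effect than at day 4 (difference -1.36 ± 0.41, adjusted p = 0.028), and its RPFs a difference of -1.17 ± 0.50 that was not called (adjusted p = 0.10).

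Brip1 and Palb2 overlapped with WT at day 10. Brip1 gave 2.62, 3.38 and 2.40 RPF CPM in WT and 3.89, 3.57 and 2.23 in BM (difference -2.69 ± 0.36, adjusted p = 0.00041, edgeR), and Palb2 0.350, 0.716 and 0.361 against 0.406, 0.388 and 0.330. The TE difference of Brip1 was not called (-2.08 ± 0.52, adjusted p = 0.13) but was with the mouse as a block (-2.06, adjusted p = 0.031).

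Rad51c stood out among the paralogs at day 10. Its RPF counts were 12, 15 and 7 in WT and 3, 0 and 0 in BM, which is 1.05, 1.53 and 0.841 CPM against 0.174, 0 and 0, while its RNA was 5.38, 8.61 and 11.3 CPM in WT and 6.76, 9.40 and 9.61 in BM. The RPF groups did not overlap and the RNA groups did. RPFs were 16.2-fold lower in BM than in WT (95% counting interval 5.1 to 82.4) and 21.7-fold lower than in BM at day 4 (7.13 to 108). With the BM mice of day 10 raised to 3 counts, TE in WT was still 5.33 times that in BM.

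For Rad51c, the BM effect was called lower at day 10 than at day 4 in RPFs (adjusted p = 0.0067, edgeR) and in TE (adjusted p = 0.082, and 0.043 with the mouse as a block), while the difference in RNA was 0.08 ± 0.36 (adjusted p = 0.89). Since 2 of the BM mice had no RPF count, the fitted size depends on the prior count. The TE call was lost with RNA of the RPF transcript only, with plain library totals, and when any of WT mice 1 and 2 or BM mice 1, 2 and 3 of day 4, or WT mice 1 and 2 or BM mice 2 and 3 of day 10, was left out. In B and M at day 10, Rad51c gave 1.56, 1.54 and 2.41 and 0.586, 0.366 and 0.923 RPF CPM. Xrcc2 overlapped with WT, at 1.14, 0.716 and 0.481 against 1.10, 0.854 and 0.330. Rad51b gave 0.525, 0.409 and 0 in WT and 1.86, 1.16 and 1.16 in BM, still above WT.

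Rad54b was the other member whose TE effect differed between the days. At day 10 it gave 0.700, 0.921 and 0.240 RPF CPM in WT and 0.464, 0.155 and 0.496 in BM, and RNA of 1.86, 3.33 and 1.47 against 1.79, 2.98 and 1.82, with both overlapping. Its TE difference was called (adjusted p = 0.054, edgeR, and 0.018 with the mouse as a block) and was lost without any 1 of WT mice 2 and 3 and BM mouse 3 of day 4 or WT mice 1 and 2 and BM mouse 2 of day 10. The count of such members, 2 of 37 (0.246% of all genes), was 0 with RNA of the RPF transcript only. Rad54l gave 0.175, 0.511 and 0 RPF CPM in WT and 0.638, 0.233 and 0.165 in BM, and Rad51ap1 0, 0.511 and 0.240 against 1.57, 0.621 and 0.413. Both overlapped with WT.

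In break sensing, Nbn fell below WT at day 10, with 23.0, 27.3 and 26.4 RPF CPM in WT and 15.6, 15.1 and 13.4 in BM (log2 change -0.81 ± 0.16, adjusted p = 0.0066, edgeR), while its RNA, 14.9, 13.9 and 16.0 CPM against 14.5, 10.8 and 14.3, was not called (-0.18 ± 0.19, adjusted p = 0.48). Its TE change, -0.65 ± 0.23, was not called (adjusted p = 0.40). Its partners Mre11a and Rad50 were called up, by 0.82 ± 0.21 (adjusted p = 0.018, edgeR) and 0.52 ± 0.18 (adjusted p = 0.052), the latter a call lost without WT mouse 1, WT mouse 3 or BM mouse 2, with Rad50 at 11.7, 16.2 and 15.5 CPM in WT and 22.3, 19.7 and 20.7 in BM. Exo1 gave 0.262, 0.205 and 0.361 CPM in WT and 0.870, 0.388 and 0.578 in BM.

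Blm stayed up in BM at day 10, at 2.80, 3.27 and 3.36 RPF CPM in WT and 6.44, 7.92 and 9.25 in BM (log2 change 1.31 ± 0.23, adjusted p = 0.0044, edgeR), with a lower effect than at day 4 (difference -1.19 ± 0.36, adjusted p = 0.029). Rmi1 gave 7.96, 6.24 and 8.29 in WT and 5.86, 6.29 and 7.27 in BM. Polq gave 0, 0.307 and 0 in WT and 0.638, 0.388 and 0 in BM, too few counts to separate the days (adjusted p = 0.13 for the difference).

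The checkpoint kinases split at day 10. Atr remained 2.91-fold up in RPFs, with 39.6, 37.3 and 47.0 CPM in WT and 135, 104 and 125 in BM, and 2.87-fold up in RNA, with 47.6, 48.9 and 50.8 against 114, 159 and 153. Its effect did not pass the test of a difference between the days (0.17 ± 0.19 in RPFs, adjusted p = 0.53, edgeR). Atm gave 29.9, 29.6 and 32.8 RPF CPM in WT and 48, 53.3 and 59.7 in BM (1.73-fold), and the effect on its RNA was lower than at day 4 (difference -0.89 ± 0.16, adjusted p = 0.0013).

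Chek1 was at 0.525, 0.511 and 0.361 RPF CPM in WT and 1.39, 0.931 and 1.82 in BM (log2 change 1.51 ± 0.41, adjusted p = 0.024, edgeR), with a lower effect than at day 4 (difference -2.64 ± 0.75, adjusted p = 0.023). Chek2, Topbp1 and Clspn overlapped with WT at day 10. Chek2 gave 4.28, 3.17 and 2.64 against 5.4, 2.79 and 2.23. Topbp1 gave 7.61, 10.1 and 9.25 against 16.4, 10.0 and 11.2, and Clspn 0.437, 1.02 and 0.361 against 1.04, 1.01 and 0.661.

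No TE change was called for a member in BM at day 10 (edgeR, with 3 of 21 at an unadjusted p under 0.05, 0 by DESeq2 and 0 with the mouse as a block).

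In M at day 10, 16 of 33 rose in RPFs (10.6% of all genes) and 10 of 30 in RNA (8.53%), among them Brca2 (log2 RPF change 1.62 ± 0.18, adjusted p = 0.0024, edgeR), Chek1 (2.93 ± 0.51), Atm (0.62 ± 0.09) and Atr (0.70 ± 0.12). Of the 16, Fancd2, Fanci, Bard1, Rad51ap1 and Chek1 passed the filter on low counts only through the M mice, as did Fance, Rad54l and Clspn of the 10 in RNA, so the counts are a description. The count of 16 was 6 without WT mouse 3, and Atm, Atr, Brca2, Chek1, Fancb and Fancl were called in RPFs whichever mouse was left out. Of the 10 RNA calls, 7 were lost without at least 1 mouse (Atm, Brip1, Clspn, Fance, Mre11a, Rad54l and Topbp1). M mouse 3 was the highest of its group for 31 of the 39 genes, and its S phase and mitosis markers were at 792 CPM against 306 and 338 in the other 2 mice. Hepatocyte markers were at 59498 to 68061 RPF CPM in M against 103000 to 129120 in WT, endothelial cell markers at 509 to 570.4 against 691 to 833, stellate cell markers at 635 to 679 against 785 to 941, and erythroid markers at 220.3 to 341 against 428 to 577. Their part was not tested. Fancd2, for example, was at 1.02, 1.83 and 8.31 RPF CPM, Fanci at 1.76, 1.90 and 6.46, and Brca2 at 8.05, 7.25 and 9.46.

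The difference of the M effect between the days was called for Blm alone in RPFs (1 of 36 members, 0.546% of all genes lower). Blm gave 3.73, 3.52 and 5.08 RPF CPM in M at day 10, against 2.80, 3.27 and 3.36 in WT, so that the effect of 1.64 at day 4 was lower at day 10 (difference -1.24 ± 0.30, adjusted p = 0.098, edgeR). The call was lost when any 1 of WT mice 1, 2 or 3 or M mice 1, 2 or 3 of day 4, of WT mice 1, 2 or 3 of day 10 or of M mice 1 or 2 of day 10 was left out, with DESeq2 and with plain library totals, and the count was 3 without M mouse 3 of day 10. No difference was called in RNA (3 of 34 at an unadjusted p under 0.05, 0 by DESeq2) or in TE (2 of 32, 0 by DESeq2).

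No TE change was called in M at day 10 (edgeR, 2 of 27 at an unadjusted p under 0.05, 0 by DESeq2), whereas with the mouse as a block Chek1 (2.15, adjusted p = 0.073) and Fanci (2.52, adjusted p = 0.085) were.

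In B at day 10, 9 of 32 members were up in RPFs (13.1% of all genes), 1 was down (12.1%) and 3 of 32 were up in RNA (8.14%). Of these, 7 of the 9 in RPFs (all but Brca1 and Topbp1) and all 3 in RNA passed the filter on low counts only through the B mice, so the counts are a description. The difference of the B effect between the days was not tested. The 9 were Bard1, Brca1, Chek1, Clspn, Fanca, Fancd2, Fanci, Rad51ap1 and Topbp1, with log2 RPF changes from 0.44 ± 0.16 for Topbp1 to 3.21 ± 0.56 for Bard1, and the gene that fell was Fancc (-0.78 ± 0.22, adjusted p = 0.039, edgeR), at 2.22, 2.06 and 2.14 CPM, a call lost with DESeq2, without WT mouse 1 or B mouse 2, and with plain library totals, where 16 members rose. The call of Topbp1 was lost with DESeq2 and without WT mouse 1, WT mouse 3, B mouse 2 or B mouse 3, that of Fanca without WT mouse 1 or WT mouse 3, and that of Rad51ap1 without WT mouse 3. In RNA the calls of Bard1 and Brca1 were lost without at least 1 mouse. Fancd2 gave 2.22, 2.94 and 4.89 RPF CPM, Fanci 2.37, 2.50 and 4.48, Brca1 4.37, 6.76 and 7.17 and Chek1 2.74, 1.91 and 3.51, all above every WT mouse. Atm and Atr, at 27.8, 31.5 and 34.1 and at 41.0, 46.6 and 42.9, overlapped with WT.

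B mouse 3 was highest for 32 of the 39 genes, and its S phase and mitosis markers, at 678 CPM, were above the 407 and 413 of the other 2 mice. Hepatocyte markers were at 58402 to 65286 RPF CPM in B against 103000 to 129120 in WT, stellate cell markers at 433 to 709 against 785 to 941, and endothelial cell markers at 559 to 680.1 against 691 to 833. Their part was not tested. No TE change was called in B at day 10 (edgeR, 3 of 29 at an unadjusted p under 0.05, 0 by DESeq2), but with the mouse as a block Fanci (2.61, adjusted p = 0.0010), Fancd2 (2.49, adjusted p = 0.0066) and Chek1 (2.13, adjusted p = 0.013) were.

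Counted by mice alone, with no model, every mouse of a group lay above every WT mouse of its day in RPFs at day 4 for 9 of the 39 genes in B, for 31 of them in M and for 35 of them in BM, where 12.0%, 17.7% and 22.4% of all genes with a count did so, and for 16, 22 and 15 at day 10 (17.1%, 15.6% and 23.1%). In RNA the counts were 3, 19 and 31 at day 4 (8.56%, 13.8% and 17.3%) and 7, 15 and 12 at day 10 (11.6%, 11.9% and 19.0%). Every mouse lay below every WT mouse in RNA for 3 members in B at day 4 (Fanci, Brca1 and Blm, where 8.84% of all genes did so) and for 2 in BM at day 10 (Fancb and Rmi1, 18.5%). In RPFs this held at day 10 for Fancc and Fancm in B (14.4%) and in M (14.1%), and for Fancb, Fancc, Rad51c and Nbn in BM (21.5%).

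The remaining repair genes were taken from 3 lists. Of 59 other Fanconi and recombination genes matched, 26 of the 56 tested rose and 3 fell in RPFs in BM at day 4, where 26.2% of all genes rose and 24.7% fell, with Mad2l2, of the shieldin complex, the lowest (log2 change -0.72, adjusted p = 0.0016, edgeR). Of 9 end joining genes, 4 rose and 1 fell, from Xrcc6 (0.93), which encodes the Ku70 subunit, to Paxx (-0.87). Of 24 excision and mismatch repair genes tested, 12 rose and none fell, from Pms2 (1.29) to Lig3 (0.23, the lowest of those called). In BM at day 10, 13 of 54, 4 of 9 and 7 of 23 were up and 6, 1 and 1 down, where 24.5% of all genes were up and 22.3% down.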

How the data were processed

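RPF and cytoplasmic RNA libraries of 24 mouse livers were analysed. Per the labels and the study's methods, RPF reads were trimmed with Cutadapt 1.18, their molecular identifiers were extracted with UMI-tools, rRNA and tRNA reads were removed, and the remainder was aligned with BBmap to the most abundant transcript of each gene (GENCODE vM27, GRCm39), deduplicated and counted within the coding region, leaving out codons at both ends. The authors deposited RPFs as these counts. RNA reads were aligned with Bowtie2 2.3.5.1 and quantified with RSEM 1.3.3 by the authors, who deposited expected counts and TPM per isoform.

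Here, expected counts were summed per gene and rounded, and absent transcripts (1689 to 3019 per library) were taken as 0. Gene symbols came from GENCODE vM39 (20614 of 20622 genes matched). Each comparison was fitted in edgeR 4.0.16 (R 4.3.3) on its own samples with TMM scaling within library type, filterByExpr (minimum count 10, total 15) and the quasi-likelihood F test. TE was the group by library type interaction. P-values were adjusted by Benjamini-Hochberg over all genes tested, with a threshold of 0.1. Levels are CPM on TMM-scaled totals, log2 TE per mouse used 0.5 added counts, and ratios against a group with at most 3 counts per mouse carry exact 95% intervals or a floor of 3 counts. Totals of 9742197 to 14380713 RPF and 3254141 to 6540116 RNA counts set the precision, and intervals cover counting error only.

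RPF and RNA libraries of a mouse pair by design, and their deviations from the group means correlated at 0.312 to 0.688 over the 24 mice, so the mouse was fitted as a block in an alternative. Each sample is 1 mouse. Other alternatives were DESeq2 1.42.0, RLE factors, no count filter, RNA of the RPF transcript only and plain library totals (both added after seeing the data) and leaving out each mouse. The script was tested on simulated data.

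Members, lists and motif words were chosen with earlier results of these data known. Values per mouse were given for members called in TE at day 4 or in a difference between days, and for Fancd2, Fanci, Brca1, Brca2, Atm and Atr. For the other members, the highest and lowest RPF change of each role in BM at day 4 were given. Start contexts and promoters were read from GRCm39 with vM39, in which 6 of the 39 member transcripts had the same version number as in the files. Fan1, Prkdc and Poll were not analysed here.
One gene's result is not reported here.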

Additional observations from a re-analysis of the deposited data

Results flagged for a closer look

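Effects that differed between day 4 and day 10 were singled out by the test of the difference itself (edgeR, Benjamini-Hochberg over all genes). For the BM effect, 24 members differed in RPFs and 17 in RNA, all with lower effects at day 10. In TE, Rad51c differed by -4.25 and Rad54b by -4.70 on the log2 scale. Both are fitted values over groups with few RPF counts (2, 2 and 0 for Rad54b in WT at day 4), which depend on the prior count and are no bounds. For Rad51c the RNA of BM and WT overlapped at both days, and the difference lay in the RPFs, which numbered 3, 0 and 0 counts in BM at day 10. For the M effect, Blm differed by -1.24 in RPFs.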

How the results depend on the processing

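Of 342 alternative values of the 27 member counts, 282 stayed within 1.5 times the reported count. Of 599 alternatives of single members, 519 kept their call, 63 lost it and 3 gained it, and no called change reversed its sign. The other 14 were bounds computed again with a floor of 5 counts, for which no limit of change was set. The cause of these shifts was not tested. Without a count filter, 4 members rose in RPFs in B at day 4 and none differed in the M effect. With DESeq2, the counts were 0 for RNA in B at day 4, 6 for RNA in M at day 10, 0 for the M effect in RPFs and 4 for the BM effect in TE. With plain library totals, 3 members were called in RPFs and 3 in RNA in B at day 4, 23 in RNA in M at day 4, 16 in RPFs and 5 in RNA in B at day 10, 15 in RNA in BM at day 10, 0 for the M effect in RPFs and 1 for the BM effect in TE. With RNA of the RPF transcript only, TE was called for 3 members in M and 5 in BM at day 4, where 4 and 6 of the calls could be tested again, and for 0 in the BM effect. With the mouse as a block, TE was called for 3 in B and 2 in M at day 10 and for 2 between BM and M, and the other TE counts stayed within 1.5 times. Replicate numbers did not pair mice across genotypes (36 correlations, -0.27 to 0.318), and the replicate block moved no RPF or RNA count by more than 1.5 times.

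Leaving out 1 mouse at a time gave the following ranges. In B at day 4, the counts were 0 to 2 for RPFs, 0 to 1 for RNA and 0 to 0 for TE. In M at day 4 they were 22 to 24, 10 to 16 and 3 to 5, and in BM at day 4 they were 32 to 35, 28 to 29 and 2 to 8. At day 10 they were 7 to 12, 1 to 3 and 0 to 1 in B, 6 to 18, 5 to 8 and 0 to 0 in M, and 9 to 17, 6 to 13 and 0 to 2 in BM. For BM against M they were 21 to 27, 16 to 26 and 0 to 0, for the M effect 0 to 3, 0 to 0 and 0 to 0, and for the BM effect 19 to 31, 11 to 20 and 0 to 7.

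The RPF count of B at day 4 was 0 without WT mouse 1 or 3 or B mouse 2 or 3 and 2 without WT mouse 2, and its RNA count 0 without WT mouse 3 or B mouse 2. At day 10, the RNA count of B was 1 without WT mouse 1, that of M was 5 without WT mouse 3 or M mouse 1, and the TE counts were 1 without B mouse 3 and 2 without BM mouse 1. For the BM effect, the RNA count was 11 without BM mouse 1 of day 4. Its TE count was 0 when any of WT 2 and BM 3 of day 4 and WT 1, WT 2 and BM 2 of day 10 was dropped, 1 when any of WT 3, BM 1 and BM 2 of day 4 and BM 3 of day 10 was dropped, and 7 without BM mouse 1 of day 10. Members with few RPF counts are limited by depth.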
